A study of Mus musculus with 6 samples.

Results

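The genes described here are named for the protein subunits of the mitochondrial ribosome. They were chosen by name: a probe set counted where the platform annotation gave it 1 gene symbol that starts with Mrpl (large subunit) or Mrps (small subunit) followed by a digit. Of 45037 probe sets, 156 fitted, of 76 genes among 18193 with a symbol. The large subunit had 104 probe sets of 47 genes and the small subunit 52 probe sets of 29 genes. None was on the X or Y chromosome, and the 76 genes lay on 17 autosomes, with 11 genes on chromosome 11 as the largest number.

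Mouse oocytes were collected at the end of growth, in the germinal vesicle (GV) stage, when the prophase nucleus is still intact, and were freed of cumulus cells by pipetting. The XY group was from females of B6.Y(TIR), a strain whose Y chromosome allows XY animals to form ovaries, and the XX group from their XX littermates. Both groups were hormone treated: the animals were 25 to 29 days old and were killed 45 to 47 hours after an injection of equine chorionic gonadotropin (5 IU). Each of the 6 Affymetrix 3' arrays, 3 XX and 3 XY, held amplified RNA of 10 oocytes, primed with oligo(dT).

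Mitochondria keep a small genome that codes for core subunits of the respiratory chain, and their own ribosome makes these proteins. It has a small subunit, which reads the mRNA, and a large subunit, which joins amino acids and passes the new chain to the inner membrane. All its proteins are coded in the nucleus and imported, and many have no counterpart in bacterial ribosomes. The grown oocyte holds a large stock of mitochondria that the early embryo inherits.

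The promoters of these genes share short sequences that the choice by name did not use. RefSeq windows of assembly GRCm38.p6, from 250 bases before to 50 bases after a start, were found for 67 of the 76 genes. The letters CCGGAAG, the core bound by ETS factors such as GABP, stood on either strand in 25 of the 67 (37.3%), against 9.93% of 27025 genes. The 27025 are all genes with a window, whether or not they were tested here. No set of genes with like expression was compared. The letters ATGGCGG, part of the YY1 motif, stood in 12 (17.9% against 4.69%), and GCATGCG, from the palindrome of the nuclear respiratory factor NRF1, in 8 (11.9% against 4.01%). ATGGCGG holds ATG, and the windows run 50 bases past the start, so its matches can lie at a start codon. How many do so was not counted. At least 1 of the 3 stood in 36 genes (53.7% against 16.6%). Matches of different motifs can overlap at their ends, and a gene was counted once for each motif on either strand. The windows of the members were richer in G and C, with a median of 58% against 52.8%. ETS letters stood in 34.1% of 41 large subunit genes and 42.3% of 26 small subunit genes, and NRF1 letters in 17.1% and 3.85%.

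Windows of 4 genes are printed because they are the members with the smallest adjusted p in each direction of the comparison below. Capitals mark any match to the 3 motifs on either strand.
Mrps6 (chr16:92058086-92058385, + strand): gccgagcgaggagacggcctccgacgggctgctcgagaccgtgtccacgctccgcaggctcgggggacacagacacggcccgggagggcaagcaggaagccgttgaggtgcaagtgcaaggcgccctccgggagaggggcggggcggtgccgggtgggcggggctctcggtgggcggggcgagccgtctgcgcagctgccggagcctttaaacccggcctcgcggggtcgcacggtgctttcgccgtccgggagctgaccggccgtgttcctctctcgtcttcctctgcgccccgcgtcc
Mrps9 (chr1:42850983-42851282, + strand): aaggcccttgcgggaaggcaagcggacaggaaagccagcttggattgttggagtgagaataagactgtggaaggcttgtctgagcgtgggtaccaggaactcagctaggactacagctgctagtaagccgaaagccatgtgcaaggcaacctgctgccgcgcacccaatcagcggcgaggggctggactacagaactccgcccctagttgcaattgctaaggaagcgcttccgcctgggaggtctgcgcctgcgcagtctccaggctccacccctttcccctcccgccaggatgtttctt
Mrps2 (chr2:28467816-28468115, + strand): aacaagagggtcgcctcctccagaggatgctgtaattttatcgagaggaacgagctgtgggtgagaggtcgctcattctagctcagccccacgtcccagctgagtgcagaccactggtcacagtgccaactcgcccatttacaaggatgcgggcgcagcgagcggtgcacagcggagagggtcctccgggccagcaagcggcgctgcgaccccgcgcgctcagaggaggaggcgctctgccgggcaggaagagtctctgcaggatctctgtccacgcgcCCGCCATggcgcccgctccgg
Mrpl52 (chr14:54426659-54426958, + strand): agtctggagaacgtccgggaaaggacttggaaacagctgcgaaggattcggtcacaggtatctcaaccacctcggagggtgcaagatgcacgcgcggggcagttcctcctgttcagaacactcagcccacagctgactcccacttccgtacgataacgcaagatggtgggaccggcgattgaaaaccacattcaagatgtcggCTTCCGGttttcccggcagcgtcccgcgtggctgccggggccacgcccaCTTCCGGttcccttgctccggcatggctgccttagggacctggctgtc

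The windows of Mrps6 and Mrps9 held none of the 3 motifs, that of Mrps2 held the YY1 letters once, and that of Mrpl52 held the ETS letters in 2 places. Among members with a window, the median log2 change between XY and XX was 0.04 with the ETS letters and 0.26 without them. It was -0.17 with the YY1 letters and 0.27 without, and -0.12 with the NRF1 letters and 0.26 without. These are descriptions over 67 genes and were not tested. A match is not evidence of binding.

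Values below are log2(quantile-normalized intensity + 9), and a change is XY minus XX on that scale, which understates the change of dim genes. A gene is called higher or lower where limma's Benjamini-Hochberg adjusted p over 12442 genes is under 0.05. Levels are listed in the order of arrays 1, 2 and 3 of each group. Of the 156 probe sets, 128 passed the filter on low values (at or above the array median on at least 3 of 6 arrays), and each of the 76 genes kept at least 1. Each gene was represented by its brightest kept probe set, which lay at or above the median on all 6 arrays in 73 genes and on 5 in Mrps34, Mrpl54 and Mrps11. None of these 128 probe sets passed through the 3 arrays of 1 group alone. In such bulk samples, fewer cells of a type and less RNA per cell cannot be told apart.

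The arrays did not stand alike. Deposited medians ran from 24.5 to 28.8 in XX and 29.2 to 31.4 in XY. The 5' control signal of Actb read 45.9 in XX 1, as low as the 54.7 to 62.7 of the XY arrays, against 184 and 188 in XX 2 and XX 3. Actb signal from 3' over 5' probe sets, as log2, was 5.53 in XX 1, 3.87 in XX 2 and 5.20 to 5.90 in XY, with XX 3 close to XX 2. All 12 oocyte markers lay above the median on all arrays, with Mos and Bmp15 lower in XY. Their summed quantile-normalized intensities were 90419.1 to 96919.9 in XX and 82246.5 to 86254.9 in XY, without overlap. Of 13 granulosa and cumulus markers 7 lay above the median on all arrays. The 13 summed to 1426 to 1743 in XX and 1670 to 1824 in XY, with Inha higher and Amh at 2.64 to 7.34. Without Nr5a2, the brightest of them, the other 12 summed to 716 to 811 in XX and 899 to 1052 in XY, without overlap. Kitl separated the groups the other way without passing (-0.63, limma adjusted p = 0.0715). The 4 macrophage markers summed to 161 to 236 in XX and 366 to 425 in XY, with Csf1r and Cd68 higher and Ptprc at 1.03 to 22.9. The 4 theca markers summed to 91.0 to 154 and 199 to 254, with none called and Cyp17a1 at 3.62 to 10.7, and the 2 red cell markers to at most 23.5. The part of these differences in the results below was not tested.

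Few mitoribosomal genes differed between XY and XX oocytes by the test. Mrps6, Mrps9, Mrpl45, Mrpl1 and Mrpl48 were higher in XY, by 0.60 to 1.47, and Mrps2 and Mrpl52 were lower, by 0.80 and 0.83 on the log2 scale. That is 5 of 76 higher (6.58%) and 2 lower (2.63%). Over all genes tested 7.86% were called higher and 5.34% lower, so neither share of the members was above that of genes at large. The remaining genes lay between -0.70 and 0.92.

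**Figure D1:**
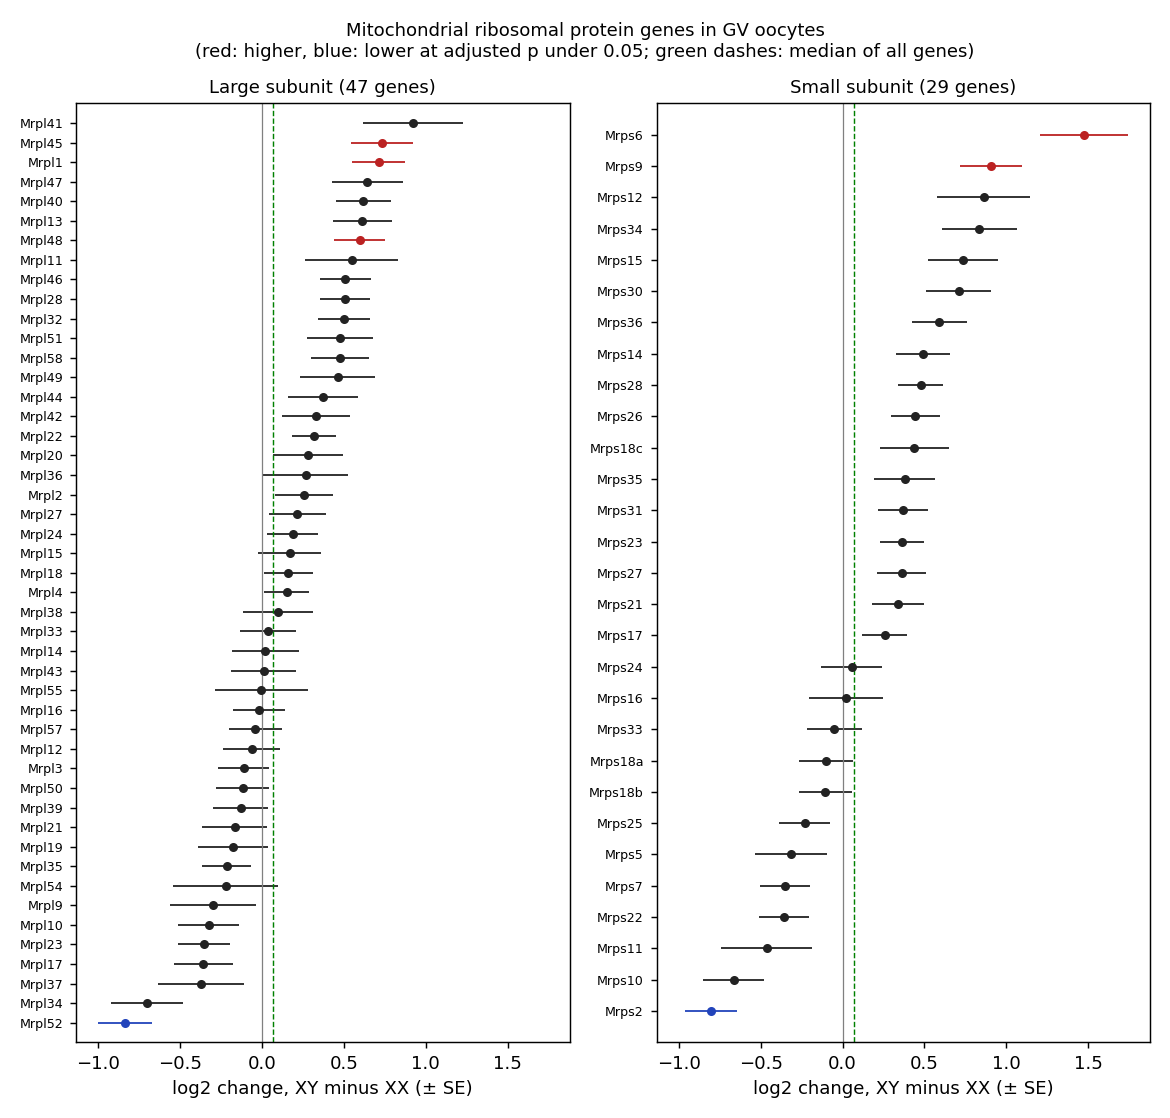
Log2 change, XY minus XX, with its SE for each of 47 large subunit genes (left) and 29 small subunit genes (right), ordered by size; red and blue mark genes past an adjusted p of 0.05 and the green dashes the median of all genes, 0.07. Mrps6 at 1.47 stands highest and Mrpl52 at -0.83 lowest, and most genes lie within 0.7 of 0.

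Among small subunit genes, Mrps6 had the largest rise. It codes for the mitochondrial form of bacterial S6, a protein of the platform of the small subunit. Its levels were 10.67, 9.83 and 9.66 in XX against 11.48, 11.56 and 11.54 in XY. The XY arrays were close together and all above XX, and XX 1 lay nearest to them. The change was 1.47 ± 0.27 (SE, n = 3 each; limma adjusted p = 0.0171), a 2.78-fold difference. A second kept probe set of Mrps6 gave 0.87 ± 0.19 and also passed when each of 22997 probe sets was tested on its own (limma adjusted p = 0.0342). In deposited units the main probe set read 1343, 1056 and 1102 in XX and 2983, 2264 and 2376 in XY, again without overlap.

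Mrps9, the counterpart of bacterial S9 in the head of the small subunit, rose as well. It read 10.05, 9.57 and 9.47 in XX and 10.56, 10.60 and 10.65 in XY, and the groups did not overlap. The change was 0.91 ± 0.19 (SE; limma adjusted p = 0.0246), and the other 2 kept probe sets gave 1.05 and 0.72. With the deposited values, without scaling between arrays, it was 0.55 and did not pass (limma adjusted p = 0.226), nor with median scaling (0.39, adjusted p = 0.269).

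Mrps2 is the counterpart of bacterial S2, which sits between head and body. It read 10.68, 10.46 and 10.53 in XX and 9.57, 9.88 and 9.81 in XY. All XX arrays were above all XY arrays, and XX 1 was the highest. The log2 change was -0.80 ± 0.16 (SE; limma adjusted p = 0.0206), a 1.74-fold difference, and a dim second probe set gave -0.88 without passing (adjusted p = 0.284 over probe sets). Under the deposited values and under median scaling, the log2 change of Mrps2 was -1.16 and -1.32 and passed both times.

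In the large subunit, Mrpl45 codes for a protein without a bacterial counterpart that helps to hold the ribosome at the inner membrane, by the exit of the peptide tunnel. Its levels were 9.46, 8.86 and 9.04 in XX and 9.92, 9.77 and 9.86 in XY. The change was 0.73 ± 0.19 (SE; limma adjusted p = 0.0467). In deposited units XX read 568, 532 and 702 and XY read 1014, 658 and 746, so the groups overlapped before scaling.

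Mrpl1 is the counterpart of bacterial L1, the protein of the stalk beside the exit site for spent tRNA. It read 8.93, 8.74 and 8.56 in XX and 9.47, 9.57 and 9.33 in XY, with no overlap, for a change of 0.71 ± 0.16 (SE; limma adjusted p = 0.0316). Its other kept probe set went the opposite way, at -0.32, and the mean of both gave 0.20 (adjusted p = 0.341). Which of them tracks the transcript was not tested.

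Mrpl48 belongs to the central protuberance at the top of the large subunit. It read 12.11, 11.90 and 11.73 in XX and 12.55, 12.52 and 12.46 in XY, and every XY array was above every XX array. The change was 0.60 ± 0.16 (SE; limma adjusted p = 0.0467), with 0.31 and 0.56 from its other 2 kept probe sets. Deposited intensities were 3905, 4472 and 4568 in XX and 6510, 4506 and 4682 in XY, which overlap, and the deposited values gave 0.26 (adjusted p = 0.599).

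Mrpl52, a large subunit gene without a bacterial counterpart, had the largest fall of the family. Its levels were 9.49, 9.78 and 9.79 in XX and 8.95, 8.67 and 8.94 in XY. XX 1 was the lowest of XX and still above XY. The log2 change was -0.83 ± 0.16 (SE; limma adjusted p = 0.0216), and the 2 other kept probe sets gave -0.63 and -0.56. Together with Mrps2 and Mrps6 it passed under the deposited values and under median scaling, while the calls of Mrps9, Mrpl45, Mrpl1 and Mrpl48 were lost under both.

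**Figure D2:**
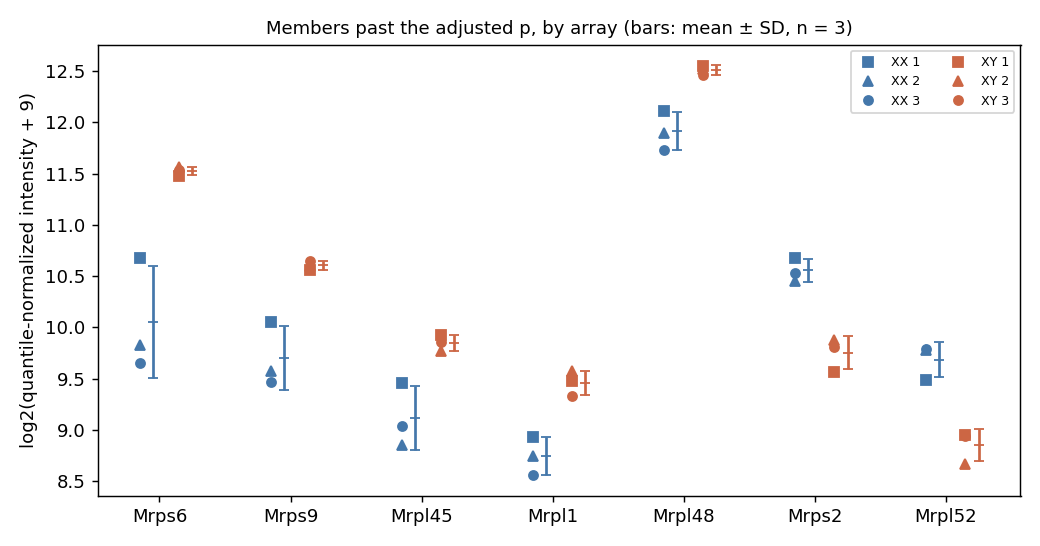
Level of the 7 called genes on each array, as log2(quantile-normalized intensity + 9), with mean and SD beside the points (n = 3); symbols give the array number and colours the group. XX and XY do not overlap in any of them, and XX 1 is the XX array nearest to XY in each but Mrps2.

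All 7 calls depended on the arrays kept. Leaving out XX 2 gave 0 mitoribosomal calls, as did leaving out XY 1, XY 2 or XY 3, and leaving out XX 3 gave 1, Mrps34. Calls over all genes fell as well in these 5 fits, to 2.34% to 3.56% higher and 1.58% to 2.1% lower. Without XX 1, in contrast, 24 were higher and 4 lower (31.6% and 5.26%), the 7 among them, where 16.8% and 10.6% of all genes were called. Mrps6 missed narrowly in the 5 other fits, with limma adjusted p values from 0.0507 to 0.06. With the Actb 3' to 5' ratio as a covariate, which uses a degree of freedom, 0 passed, and Mrps6 stood at 0.94 (adjusted p = 0.0971).

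Genes that missed the threshold in the report's fit included further large differences. Mrpl41, a mitochondria-specific protein of the large subunit, read 10.52, 9.41 and 9.47 in XX and 10.55, 10.83 and 10.79 in XY, so XX 1 was at the level of XY 1. The change was 0.92 ± 0.31 (SE; limma adjusted p = 0.0861). Mrps12, the counterpart of bacterial S12 at the decoding centre, had 0.86 ± 0.29 (adjusted p = 0.0861). Mrps34, which keeps the small subunit stable, was dim, at 5.12 to 5.83 in XX and 6.06 to 6.55 in XY (0.83 ± 0.23, adjusted p = 0.0549). Mrps15, the counterpart of S15, had 0.73 ± 0.22 (adjusted p = 0.0637), with 1.11 from its second kept probe set. Groups did not overlap in any of these 4.

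On the other side, Mrpl34, the counterpart of bacterial L34, read 7.91, 8.65 and 8.48 in XX and 7.53, 7.78 and 7.64 in XY (-0.70 ± 0.22, limma adjusted p = 0.0748). Mrps10, the counterpart of S10 in the head, had -0.66 ± 0.19 (adjusted p = 0.0579). Both separated the groups. Mrps11 (-0.46, adjusted p = 0.289) and Mrpl37 (-0.37, adjusted p = 0.367) overlapped between the groups. Mrps22, a mitochondria-specific small subunit protein whose inherited loss in humans is tied to ovarian failure, read 11.59, 11.62 and 11.90 in XX and 11.44, 11.27 and 11.32 in XY (-0.36 ± 0.15, adjusted p = 0.161).

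The names do not always give the subunit. In mammals the products of Mrps30 and Mrps18a sit in the large subunit. Mrps30 read 9.80, 9.22 and 9.42 in XX and 9.99, 10.23 and 10.35 in XY (0.71 ± 0.20, limma adjusted p = 0.0572). Mrps18a read 9.36 to 9.77 in XX and 9.37 to 9.53 in XY, with -0.10 ± 0.16. Mrps36 had 0.59 ± 0.17 (limma adjusted p = 0.0581). Its product is now known as a part of the 2-oxoglutarate dehydrogenase complex, but by name Mrps36 was counted with the small subunit throughout.

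The family's median change stood above that of all genes after quantile normalization, by 0.13, but by 0.01 or less under the other 3 scalings. Of 76 genes 48 were above 0 (63.2%, against 55.6% of all genes), and the median change was 0.20 against 0.07. The groups did not overlap in 40 genes (52.6%), 30 higher and 10 lower in XY, where 38.8% of all genes did not overlap, 22.6% higher and 16.2% lower. In 24 of the 30 higher genes (80%), XX 1 was the highest XX array, against 54.4% of the 2815 such genes overall. At an unadjusted p under 0.05, 29 members differed (38.2%, against 32.2% of all genes). Of these 25 were higher (32.9%, against 18.9% of all genes) and 4 lower, a direction that held 13.3% of all genes. All genes tested were split into 3 equal groups by mean intensity, which reflects the probe as well as the transcript, and 49 members fell in the brightest. There the median change was 0.32 for members and 0.05 for all genes, 8.16% and 6.08% were called higher, and 61.2% and 46.4% did not overlap. In the middle group, with 20 members, the medians were 0.07 and 0.07, and 5% and 11.3% were called higher. In the dimmest, with 7 members, the medians were -0.18 and 0.10.

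With the deposited values 34 of 76 were above 0, with a median of -0.11 against -0.12 for all genes. With median scaling 19 were above 0, with -0.27 for members and -0.27 for all genes, and with trimmed mean scaling 52 were, with 0.19 and 0.18. Relative to all genes these medians are 0.01, -0.001 and 0.01. These settings differ only by a constant factor for each array. The difference between members and all genes is therefore nearly the same in each, and they are not separate checks. In the brightest group the members' median stayed above that of all genes in each. It was -0.01 against -0.29 with the deposited values, -0.18 against -0.45 with median scaling and 0.30 against 0.02 with trimmed mean scaling. In the middle group the values were -0.13 against -0.16, -0.29 against -0.31 and 0.17 against 0.15, in the same order. In the dimmest group members lay below all genes in each, at -0.16 against 0.17, -0.29 against 0.03 and 0.12 against 0.43.

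**Figure D3:**
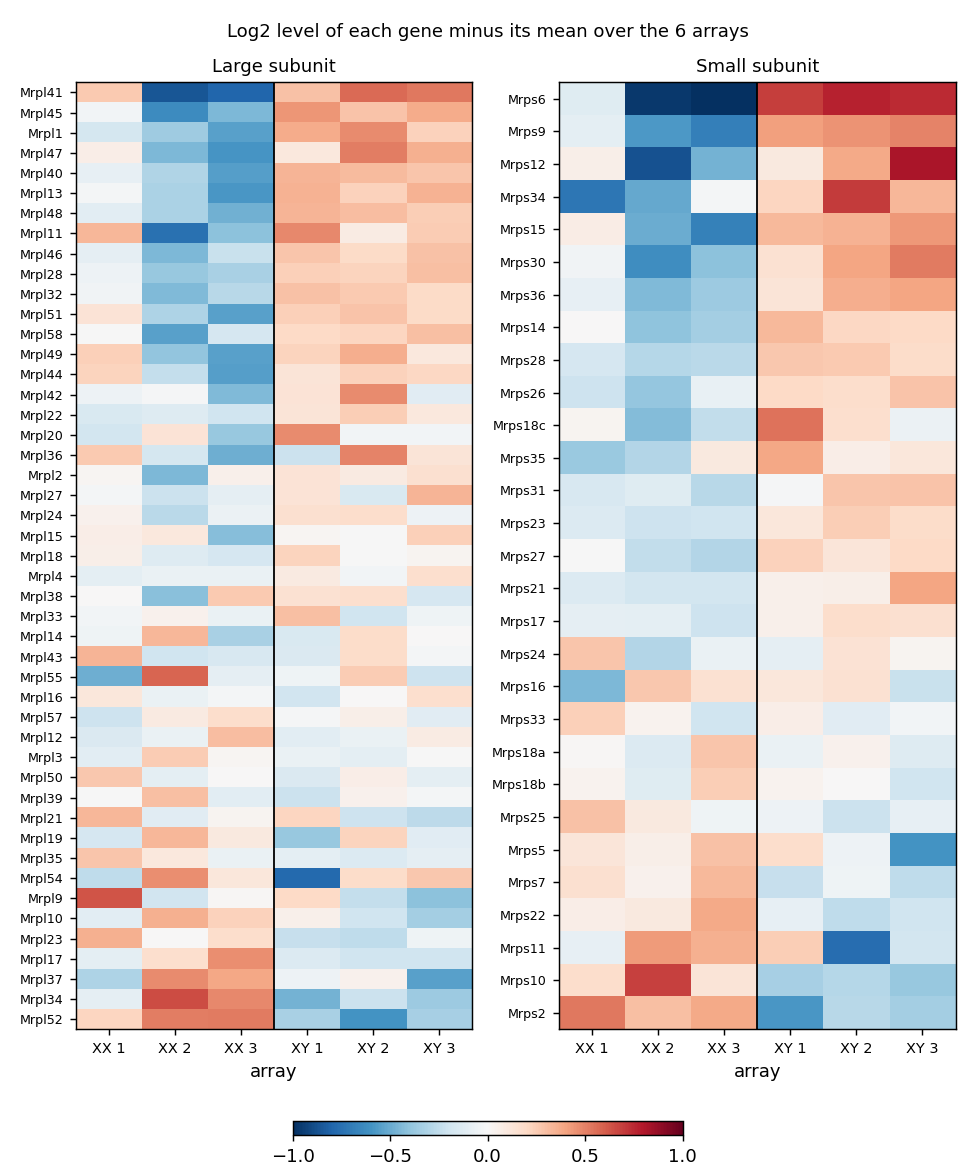
Level of each of the 76 genes on each array minus the gene's own mean over the 6 arrays, in log2 units, with genes ordered by their change. In most upper rows XX 2 and XX 3 are the low arrays and XX 1 lies between them and XY, as for Mrps6 at 10.67 against 9.83 and 9.66.

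Small subunit genes had the larger median change, 0.36 over 29 genes, against 0.16 over 47 large subunit genes. Relative to the median of all genes, small subunit genes stood at 0.29 here. They stood at 0.16 with the deposited values, 0.16 with median scaling and 0.18 with trimmed mean scaling. Large subunit genes stood at 0.09 here and at -0.03, -0.02 and -0.02 in the same order. The settings other than quantile normalization differ only by a constant factor for each array, so their near agreement was fixed in advance. In the small subunit 2 were called higher and 1 lower (6.9% and 3.45%), and in the large subunit 3 and 1 (6.38% and 2.13%). Groups did not overlap in 20 of 29 small subunit genes (69%), 15 of them higher in XY, and in 20 of 47 large subunit genes (42.6%), 15 higher. Of all genes 38.8% did not overlap, 22.6% higher in XY. Each gene was centred over the arrays and the median of all genes subtracted. Large subunit medians were then -0.02, -0.09 and -0.07 in XX, against 0.09, 0.12 and 0.04 in XY. Small subunit medians were -0.01, -0.17 and -0.16 in XX and 0.07, 0.10 and 0.11 in XY. The groups did not overlap in either, and XX 1 was the XX array nearest to XY in both.

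The difference between the subunits was -0.20, large minus small. It stayed negative in all 22 alternatives, from -0.27 to -0.12, but all of them reused these arrays. A trended variance, the replicate block and another threshold cannot change a median, so their sign was fixed in advance. Leaving out the filter or using the mean filter left the member medians unchanged. The scalings other than quantile normalization differ only by a constant factor for each array, so they are not separate checks of this difference. Within an array, the large subunit median less the small subunit median was -0.02, 0.08 and 0.08 in XX and 0.01, 0.02 and -0.07 in XY, so XX 1 lay within the range of XY. The difference was not tested. With Mrps18a and Mrps30 counted as large, the medians remained 0.16 and 0.36, over 49 and 27 genes. Mrps36 stayed among the 27.

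**Figure D4:**
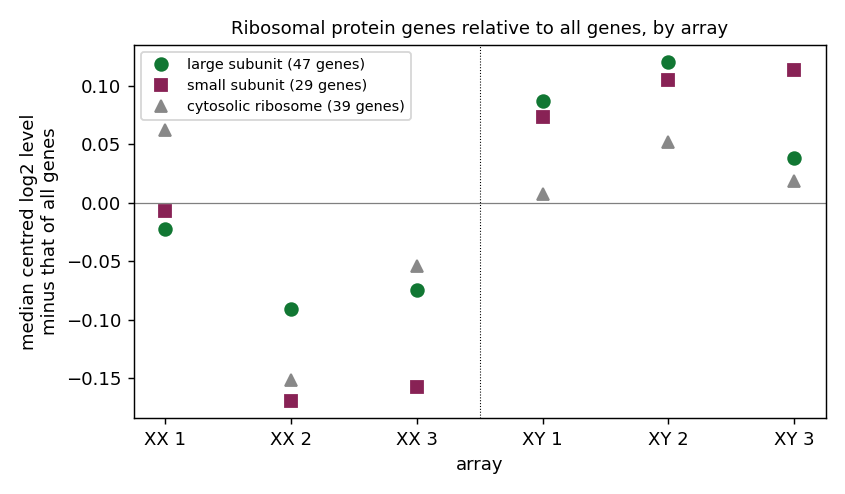
Median of the centred log2 levels of large subunit, small subunit and cytosolic ribosomal protein genes on each array, minus that of all genes, after quantile normalization (the other scalings put the large subunit change at or just below that of all genes). Small subunit genes run from -0.17 in XX 2 to 0.11 in XY 3, large subunit genes from -0.09 to 0.12, and the cytosolic set from -0.15 to 0.06 with its highest value in XX 1.

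Members with a bacterial counterpart, by name, numbered 44, with 3 higher (6.82%) and 1 lower (2.27%). Their median change was 0.17 after quantile normalization. The 32 without one had 2 higher (6.25%), 1 lower (3.12%) and a median of 0.36. Of all genes 7.86% were called higher and 5.34% lower, so no share of either set was above that of genes at large. The difference in median was larger in the large subunit, at 0.16 for 28 genes with a counterpart and 0.33 for 19 without. In the small subunit the medians were 0.30 for 16 and 0.36 for 13. None of these differences was tested.

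Places in the ribosome were grouped after the values were seen and serve as description only. The central protuberance had 6 genes, Mrpl18, Mrpl38, Mrpl40, Mrpl46, Mrpl48 and Mrpl58. With the probe set that stands for each gene and quantile normalization, their changes ran from 0.10 to 0.62. All were above 0, as were 55.6% of all genes, and 1 was called higher (16.7%, against 7.86% of all genes). Under the deposited values 4 of the 6 were above 0 and under median scaling 2, and the 2 other kept probe sets of Mrpl38 gave -0.47 and -0.52. Mrpl40 read 10.60, 10.38 and 10.13 in XX and 11.02, 10.99 and 10.96 in XY (0.62 ± 0.17, limma adjusted p = 0.0510). Mrpl58, a peptidyl-tRNA hydrolase that has become a ribosomal protein, had 0.48 (adjusted p = 0.113). The 5 platform genes of the small subunit had a median of 0.44, from -0.46 for Mrps11 to 1.47 for Mrps6.

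At the tunnel exit, where the new chain leaves, 6 genes ran from -0.36 for Mrpl17 to 0.73 for Mrpl45. Of these 1 was called higher (16.7%, against 7.86% of all genes). Mrpl22 and Mrpl47 were on the upper side (0.32 and 0.65) and Mrpl23 on the lower (-0.35), so signs were mixed there. The 8 head genes ran from -0.66 for Mrps10 to 0.91 for Mrps9. The 3 genes of the stalk that binds translation factors, Mrpl10, Mrpl11 and Mrpl12, had -0.32, 0.55 and -0.06 and 0 calls by limma, with 0 at an unadjusted p under 0.05. The 5 genes beside the peptidyl transferase centre stayed between -0.11 and 0.26.

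Probe sets of a gene often disagreed. Of 30 members with several kept probe sets, 11 had changes of both signs. The gap exceeded 1 in Mrpl1, in Mrpl15 (-0.50 to 0.51 over 6 probe sets) and in Mrpl47 (0.65 from the brighter, -0.58 from the dimmer). Mrpl15 had 0.17 ± 0.19 from its main probe set. With each gene as the mean of its kept probe sets, 5 were higher and 1 lower. Mrpl40 and Mrps15 then passed, while Mrpl1, Mrpl48 and Mrps2 did not (adjusted p = 0.341, 0.0531 and 0.0596). With every probe set tested on its own, 5 of 128 were higher and 2 lower (3.91% and 1.56%), against 5.08% and 5.41% of all probe sets.

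Other genes of mitochondrial translation and mitochondrial DNA expression were taken from 5 lists. Of 62 tested, 3 were higher and 1 lower (4.84% and 1.61%), with a median of 0.15, again under the shares of all genes. Of 21 genes on the list of ribosome assembly 1 rose and 1 fell. Mterf3, which binds the mitochondrial ribosomal RNA region and helps large subunit assembly, read 8.71, 8.57 and 8.49 in XX and 9.52, 9.29 and 9.84 in XY (0.96 ± 0.18, limma adjusted p = 0.0193). Gtpbp10, a GTPase of large subunit maturation, fell, from 9.78, 10.34 and 10.08 to 8.86, 8.97 and 8.99 (-1.13 ± 0.18, adjusted p = 0.0121). The groups did not overlap in either.

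Of 14 synthetases that charge mitochondrial tRNAs, 2 rose (14.3%, against 7.86% of all genes) and 11 changes were above 0 (78.6%, against 55.6% of all genes). The same list held Gatb, Gatc and Qrsl1, the subunits of the amidotransferase that converts a mischarged tRNA, with -0.54, 0.02 and 0.77 and none called by limma (0 at an unadjusted p under 0.05). With the amidotransferase included, the list had 17 genes, of which 2 rose (11.8%) and 13 changes were above 0 (76.5%). Nars2, for asparagine, was dim and read 5.00, 4.74 and 5.05 in XX and 6.36, 5.96 and 6.74 in XY (1.42 ± 0.22, limma adjusted p = 0.0117). All its XX levels lay below the array median, so Nars2 passed the filter only through the XY arrays, where it was high. The counts of synthetases that rose include it and are no support for a rise of the list. Ears2, for glutamate, had 0.85 ± 0.19 (adjusted p = 0.0308). None of 9 factors of initiation, elongation and release passed by limma, with 3 at an unadjusted p under 0.05 (33.3%, against 32.2% of all genes), nor did Lrpprc (0.38) or Slirp (-0.08), which stabilize mitochondrial mRNA and stood on the same list; Tufm, the elongation factor that brings tRNA to the ribosome, had 0.83 (adjusted p = 0.0524). None of 9 genes of mitochondrial DNA transcription and copying passed, with 3 at an unadjusted p under 0.05, nor did any of 4 subunits with other names, with 1. Tfam, which packs mitochondrial DNA and starts its transcription, had -0.80 (adjusted p = 0.0522), and Gadd45gip1, a large subunit protein, -0.49 (adjusted p = 0.0724). Tufm, Tfam and Gadd45gip1 were picked after their values were seen.

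Cytosolic ribosomal proteins, the most similar family, had 39 genes tested. None passed by limma, with 7 at an unadjusted p under 0.05 (17.9%, against 32.2% of all genes), and the median change was 0.16. Groups did not overlap in 33.3% of them, against 38.8% of all genes. Without XX 1, 9 were higher (23.1%, against 16.8% of all genes). No test compared the families.

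**Figure D5:**
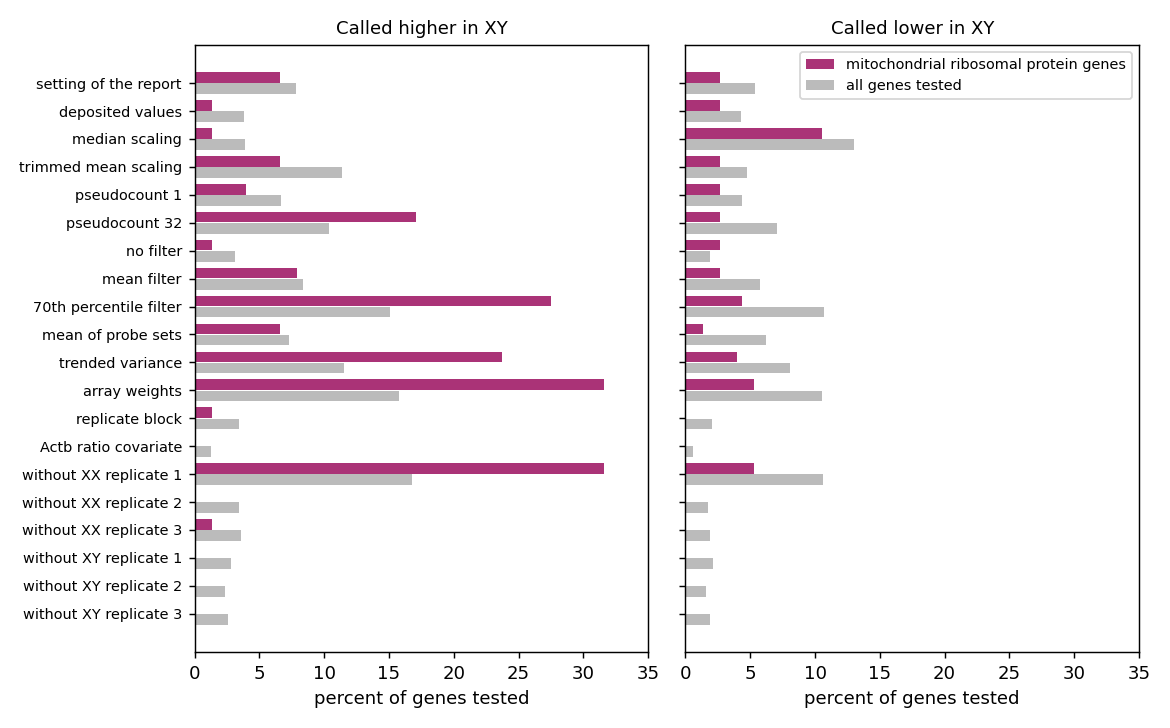
Percent of the mitochondrial ribosomal protein genes and of all genes tested that were called higher (left) or lower (right) in XY, for the setting of the report and each alternative fitted on genes. Members exceed all genes among higher calls with 5 settings, up to 31.6% against 16.8% without XX replicate 1, and in the others they are below.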

How the data were processed

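Gene expression was compared between 3 XY and 3 XX arrays. The values deposited are linear intensities, 1 for each probe set on each array; the submitters' processing notes name MAS5 alone, without version or settings. Array medians differed, so the 6 arrays were quantile normalized over 45037 probe sets, without 64 controls. Probe sets with 1 symbol numbered 34945, of which 34741 matched RefSeq's gene table of GRCm38.p6 by gene ID; 932 had several symbols and 9160 none listed, and these were not named. The pseudocount 9 is the 25th percentile of the deposited intensities, rounded. The filter kept 22997 probe sets, of 12442 genes. XY minus XX was fitted with limma 3.58.1 in R 4.3.3 (lmFit, eBayes), and the fit was checked on simulated data. No score over members was tested. With 3 arrays per group the number of arrays limits the precision.

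Named members were those past the adjusted p, the 5 largest other changes in each direction, genes whose kept probe sets differ in sign by more than 1, Mrps18a and Mrps30, and up to 6 called genes of each other list. Genes named beyond this rule, in the accounts of the places in the ribosome, the probe sets and the factors, were chosen after their values were seen, as was Mrps36. The tRNA amidotransferase, the mRNA stability genes and Nr5a2 were set apart from their lists after values were seen. The members and lists were chosen with earlier results of these data known. The arrays of a group come from separate females per the labels' protocols. Deviations of same-numbered arrays do not correlate, and no pairing was used, though with 3 arrays per group this cannot decide whether samples were paired. Alternatives covered the scaling, pseudocount and filter, how probe sets were combined, the variance model, weights on arrays, a block on replicate number, an RNA quality covariate, the threshold and each array left out.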

Additional observations from a re-analysis of the deposited data

How the results depend on the processing

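Mitoribosomal genes called higher, 5 in the report, were 1 with the deposited values, median scaling or no filter, 3 with pseudocount 1, 13 with pseudocount 32, 19 with the 70th percentile filter, 18 with a trended variance, 24 with array weights, 0 with the Actb covariate and 20 at an adjusted p of 0.10. Those called lower, 2, were 8 with median scaling, 1 as means of probe sets, 4 with array weights, 0 with the Actb covariate and 4 at 0.10. Over all genes, 1643 calls became 1001 with the deposited values, 913 with no filter, 3264 with array weights, 236 with the Actb covariate and 3019 at 0.10. Called higher were 3.79% of all genes with the deposited values, 3.87% with median scaling, 3.11% with no filter and 6.7% with pseudocount 1. It was 11.4% with trimmed mean scaling, 7.28% as means of probe sets, 10.4% with pseudocount 32 and 15.1% with the 70th percentile filter. With a trended variance it was 11.5% and with array weights 15.8%. Shares of all genes by direction at 0.10 are not given, so the counts at 0.10 cannot be read against genes at large. With the Actb covariate 1.28% were called higher and 0.619% lower. Called lower were 13% with median scaling, 6.2% as means of probe sets and 10.5% with array weights. The share lower was 4.25% with the deposited values, 7.03% with pseudocount 32 and 5.73% with the mean filter. It was 10.7% with the 70th percentile filter and 8.08% with a trended variance. Leaving out 1 array gave 472 to 3307 calls over all genes, 0 to 24 members higher and 0 to 4 lower.

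The median of large subunit genes, 0.16, was -0.15 with the deposited values, -0.29 with median scaling, 0.0362 as means of probe sets, 0.0168 over every kept probe set and 0.0886 with the Actb covariate. It was 0.11 to 0.23 with 1 array left out. That of small subunit genes, 0.36, was 0.0445 with the deposited values, -0.12 with median scaling, 0.18 over every kept probe set and 0.25 with the Actb covariate, and 0.30 to 0.36 with 1 array left out. Their difference, -0.20, was -0.27 as means of probe sets and -0.21 to -0.12 with 1 array left out. Its other values stayed within the spread between replicates.

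In the list of mitochondrial translation, 3 higher became 1 with the deposited values or median scaling, 7 with trimmed mean scaling or pseudocount 32, 8 with the 70th percentile filter or trended variance, 9 with array weights or at 0.10, 0 with the Actb covariate and 0 to 8 with 1 array left out. Its 1 lower became 2 with the deposited values, pseudocount 32 or the mean filter, 6 with median scaling, 3 with the 70th percentile filter, trended variance or at 0.10, 0 as means of probe sets or with the Actb covariate, 4 with array weights and 1 to 3 with 1 array left out. Cytosolic genes, 0 higher, became 1 with pseudocount 32 or as means of probe sets, 2 with the 70th percentile filter, every kept probe set or at 0.10, 4 with trended variance, 8 with array weights and 0 to 9 with 1 array left out; 0 lower became 1 with median scaling, every kept probe set or trended variance. The cause of these shifts was not tested.

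With the replicate block, 1 member was higher (Mrps6, adjusted p = 0.0424) and 0 lower, of 679 calls over all genes, and the translation list had 1 higher. Deviations of same-numbered arrays correlated at -0.10, 0.001 and -0.04. With 3 arrays per group, this check cannot decide whether same-numbered samples were paired. No array correlated best with the array of its own number.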
